A study of Glycine max with 12 samples.

Results

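Roots of a soybean (Glycine max) line with overexpressed GmZF351, a zinc finger gene, were set against roots of the cultivar Jack, over every gene with enough reads to be tested. The comparison takes the 3 root libraries of transgenic line OE-34, called OE root here, against the 3 root libraries of Jack, called WT root, which makes 6 of the 12 libraries of the study. The other 6 are leaf libraries of the same genotypes and served only for a leaf level and an alternative fit. Plants grew in pots and their roots were cut at the V1 stage, per the study's design text. OE-34 is a single transgenic line, and the promoter that drives the transgene is not named in the sources used. The labels call the samples biological repeats without saying whether each is 1 plant or several, so the p-values rest on a spread between samples that may be technical in part. Of 43517 gene models, 33389 had enough root counts to be tested.

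GmZF351 encodes a protein with CCCH zinc fingers and is known for raising oil content in soybean seed. Roots take up phosphate through PHT1 carriers in the plasma membrane, nitrate through NRT carriers and iron through IRT carriers. In Arabidopsis and rice, proteins with an SPX domain sense the cell's phosphate supply and hold back PHR transcription factors, and genes of the SPX and PHT1 families are among those that PHR factors switch on when phosphate is short. Soybean roots also make isoflavonoids from phenylalanine, which act as defence compounds and as signals to nodule bacteria.

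GmZF351 (Glyma.06G290100, chromosome 6, 47897433 to 47899059, minus strand) had 33245, 31406 and 35104 counts in OE root 1 to 3. WT root 1 to 3 held 0, 4 and 0. The OE and WT values lay far apart, and the ratio of the summed counts per library size was 22300, with a 95% exact counting interval of 8720 to 81900 (edgeR quasi-likelihood adjusted p = 1.81e-11). The identifier was paired with the name from general knowledge, since neither the count table nor the reference table annotates it. Counts per gene do not separate the introduced copy from the resident gene.

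Root libraries held 16885874 to 18686319 counts. The 3 leghemoglobin genes matched by name, markers of nodules, had no count in any of them. WT root 3 stood apart from the other 2 WT libraries, with a chi-square per gene of 9.87 and 7.1 against them, where they gave 2.97 against each other and pairs of OE libraries 2.26 to 3.39. Results that rest on it are therefore given with and without it.

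In all, 11818 of the 33389 genes tested, 35.4%, passed an adjusted p under 0.05 in edgeR's quasi-likelihood test. Of these, 5403 (16.2% of genes tested) were higher and 6415 (19.2%) lower in OE root. Such a gene is called changed below, and a count of called members of a family is to be read against these shares. Genes that changed at least 2-fold numbered 697 higher (2.09%) and 1734 lower (5.19%), and those at 4-fold or more 81 higher (0.243%) and 480 lower (1.44%). The median log2 fold change of all genes tested was 0.01. Levels are CPM, counts scaled by TMM library size, and SE is the standard error of the log2 fold change, which is OE over WT throughout.

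Phosphate genes were lower in OE root in every member tested. All 4 SPX genes and all 8 PHT1 carrier genes tested fell, with log2 fold changes from -4.40 to -0.76 and a median of -1.63. PHT1-5 and PHT1-6 had at most 43 counts over the 6 libraries and were not tested. SPX2, SPX3, PHT1-1 and PHT1-6 came from a list of mineral genes, as did SPX1, while the other members were added after the values of SPX1 and PHT1-1 had been seen, so the count is a description.

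SPX1 (Glyma.01G135500, chromosome 1, 45776779 to 45781199) stood at 11.3, 12.3 and 9.74 CPM in OE root 1 to 3 and at 232, 243 and 230.3 CPM in WT root 1 to 3. The 3 WT values were close together and far above the OE values, including that of WT root 3. The difference was 21.2-fold (log2 fold change -4.40, SE 0.0849, edgeR adjusted p = 1.31e-20). SPX7 (Glyma.13G166800, chromosome 13, 28161946 to 28164623) stood at 17.1, 15.2 and 18.5 CPM in OE and 171, 160.4 and 155 CPM in WT, 9.56-fold lower (log2 fold change -3.26, SE 0.083). SPX3 (Glyma.04G147600, chromosome 4, 29849735 to 29853236) stood at 11.2, 10.5 and 12.04 CPM in OE and 85.6, 88.9 and 96.4 CPM in WT (log2 fold change -3.01, SE 0.0887). In neither gene did the groups overlap. SPX2, the least abundant of the 4, had a log2 fold change of -1.71 (SE 0.255) on 22 to 33 counts per OE library and 69 to 107 per WT library.

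Among the carriers, PHT1-7 (Glyma.19G164300, chromosome 19, 42521537 to 42524774) differed most, with 6.04, 5.86 and 7.59 CPM in OE root and 73.2, 70.1 and 67.6 CPM in WT root, 10.8-fold lower (log2 fold change -3.43, SE 0.103). PHT1-1 (Glyma.10G186500, chromosome 10, 41946209 to 41950274) stood at 159, 146 and 148 CPM in OE and 729, 739 and 681 CPM in WT, 4.74-fold lower (SE 0.0613 on the log2 scale). The most abundant per length of the 8 carrier genes tested, PHT1-3 (Glyma.10G006700, chromosome 10, 662561 to 665361), went from 864 RPKM in WT to 430.0 RPKM in OE. Its libraries gave 816, 828 and 839 CPM in OE and 1720.0, 1736 and 1538 CPM in WT, a log2 fold change of -1.01 (SE 0.0553). Thus abundant and scarce carriers alike were lower, and in none of the 8 did an OE value reach a WT value. Over all genes tested, 46.9% had groups that did not overlap. The smallest change was that of PHT1-14 (Glyma.02G005800), at 638, 625 and 643 CPM in OE against 1092, 1147 and 979 CPM in WT (log2 fold change -0.76, SE 0.0589). PHT1-2, PHT1-9, PHT1-10 and PHT1-4 had log2 fold changes of -1.41, -1.55, -1.24 and -1.14. These 12 calls held when any 1 of the 6 root libraries was left out. Fewer cells of a type and less RNA per cell cannot be told apart in such bulk samples. Reads shared by near-identical copies can be split or lost in the counting, and PHT1-1 and PHT1-6 have neighbouring identifiers, so values of single carriers are less certain than the family's direction.

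**Figure D1:**
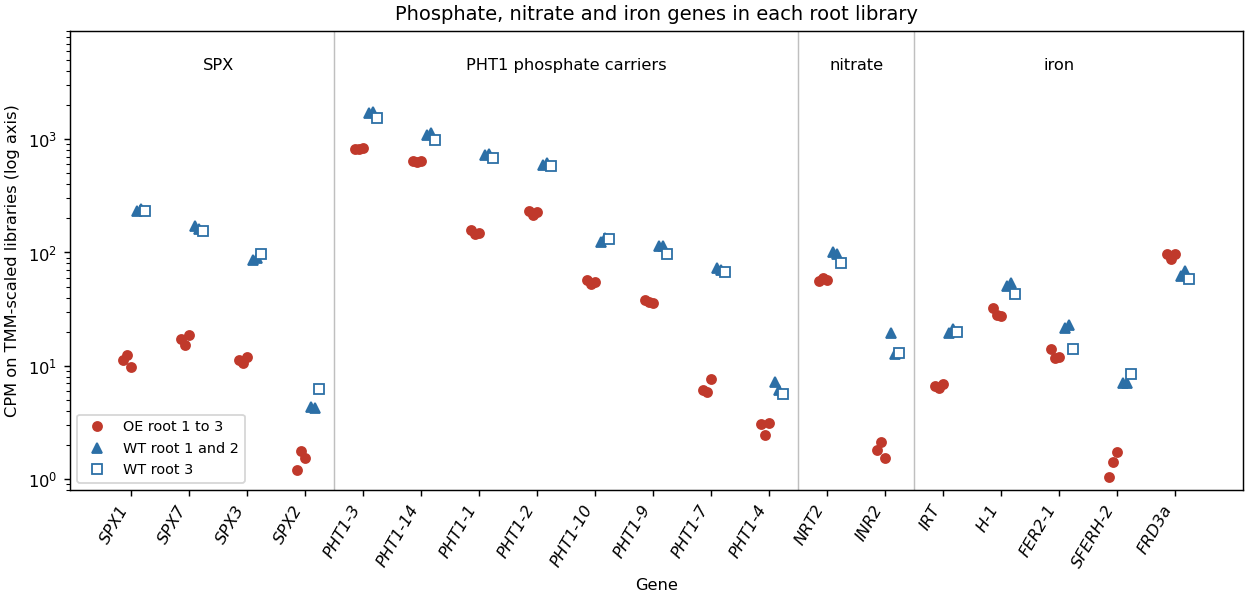
Levels of phosphate, nitrate and iron genes in each root library, as CPM on TMM-scaled library sizes on a log axis, one symbol per library and no averaging. Red circles (OE root) lie below the blue symbols (WT root) for every gene shown except FRD3a, where they lie above, and FER2-1, where OE root 1 and WT root 3 coincide.

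Of the 3 nitrate genes of the list, 2 fell. INR2, a nitrate reductase gene (Glyma.06G109200, chromosome 6, 8794670 to 8799350), stood at 1.81, 2.1 and 1.52 CPM in OE root and 19.3, 12.7 and 12.9 CPM in WT root, 8.25-fold lower (log2 fold change -3.04, SE 0.204, edgeR adjusted p = 5.89e-11). WT root 1 was the highest library and WT root 2 and 3 were level. NRT2 (Glyma.13G323800), a high-affinity nitrate carrier gene, stood at 55.9, 59.0 and 57.3 CPM in OE and 101, 96.8 and 81.2 CPM in WT (log2 fold change -0.70, SE 0.0798). The nitrite reductase gene NIR had a log2 fold change of -0.91 (edgeR adjusted p = 0.0619), and its groups overlapped.

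Of the iron genes, the carrier gene IRT and all 3 ferritin genes matched by name fell, while FRD3a rose. IRT (Glyma.07G223200, chromosome 7, 39974055 to 39982046) stood at 6.59, 6.40 and 6.91 CPM in OE root and 19.5, 21.0 and 19.7 CPM in WT root, 3.02-fold lower (log2 fold change -1.60, SE 0.123, edgeR adjusted p = 6e-10). Ferritins store iron in plastids. SFERH-2 (Glyma.01G124500) was lowest among them in OE, at 1.04, 1.40 and 1.73 CPM against 7.0, 7.05 and 8.52 CPM in WT (log2 fold change -2.43, SE 0.226). The ferritin genes H-1 and FER2-1 had log2 fold changes of -0.74 and -0.63. In FER2-1 the groups met, since WT root 3 at 14 CPM lay beside OE root 1 at 14.1 CPM while WT root 1 and 2 stood at 21.4 and 22.9 CPM. FRD3a (Glyma.15G274600, chromosome 15, 51258793 to 51268380), related to the citrate exporter that carries iron in the xylem of Arabidopsis, stood at 95.9, 87.5 and 96.3 CPM in OE and 61.5, 68.8 and 58.4 CPM in WT (log2 fold change 0.57, SE 0.0755). Its relative FRD3b had a log2 fold change of -0.07 (edgeR adjusted p = 0.45).

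Taking the mineral list as a whole, 10 of 15 members tested fell and 2 rose, with a median log2 fold change of -0.90. The falls include SPX1, SPX2, SPX3 and PHT1-1, already counted among the phosphate genes above. The 2 that rose were FRD3a and NHX1, a vacuolar sodium/proton exchanger gene, whose log2 fold change of 0.22 (edgeR adjusted p = 0.0182) lost its call without OE root 3 (0.131). SOS1, a sodium exporter gene of the plasma membrane, had a log2 fold change of -0.07 (edgeR adjusted p = 0.456).

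The desaturase genes of plastids that make trienoic fatty acids were also lower, in 4 of 4 members. FAD7-2 (Glyma.07G151300, chromosome 7, 18352409 to 18355476) stood at 26.1, 24.9 and 25.96 CPM in OE root and 139, 138 and 113 CPM in WT root, 5.06-fold lower (log2 fold change -2.34, SE 0.0847, edgeR adjusted p = 9.24e-16). FAD7-1 (Glyma.18G202600) stood at 30.8, 32.9 and 35.96 CPM in OE and 88.1, 95.8 and 87.4 CPM in WT, 2.72-fold lower (SE 0.0786 on the log2 scale). The groups did not overlap in either gene. FAD8.2 and FAD8-1 had smaller log2 fold changes, -0.94 (SE 0.13) and -0.50 (SE 0.13). The FAD3 genes, whose enzymes catalyse the same step in the endoplasmic reticulum, had log2 fold changes of -0.14 to 0.02, and 0 of 3 were called.

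The rest of the fatty acid and oil list, the pathway for which GmZF351 is known in seed, gave few calls in root. Of the other 17 members tested, 2 rose and none fell. Over all 21 tested, with the plastid desaturase genes, 2 rose and 4 fell and the median log2 fold change was -0.04. All 4 that fell were the plastid desaturase genes set apart above, so the absence of falls in the rest follows from that split. SACPD-C, a stearoyl-ACP desaturase gene, rose from 16.2, 21.3 and 19.6 CPM in WT to 27.9, 30.0 and 27.6 CPM in OE (log2 fold change 0.58, SE 0.105, edgeR adjusted p = 0.00014). FAD2-2B, an oleate desaturase gene, had a log2 fold change of 0.23 (edgeR adjusted p = 0.0267), and this call was lost without WT root 3 (0.105), without WT root 2 and without each of the OE libraries. The regulators of fatty acid synthesis WRI1A and WRI1B had log2 fold changes of 0.02 and -0.06, and the 3 genes for diacylglycerol acyltransferase, the last enzyme of oil synthesis, between -0.23 and 0.16, with none of these 5 called. Of 7 genes known for their activity in seed (the LEC1, ABI3, FAD2-1 and oleosin members), none had more than 3 counts over the 6 root libraries.

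Lipoxygenases oxidise the trienoic and dienoic fatty acids. LOXB1 (LOX4, Glyma.13G347700), at 845 RPKM in OE and 1330.0 RPKM in WT the most abundant list member per length, stood at 2923, 2830.0 and 2836 CPM in OE root and 4707, 4276 and 4526 CPM in WT root (log2 fold change -0.65, SE 0.0487, edgeR adjusted p = 3.41e-10). All WT values were above all OE values. LOX7 (Glyma.13G347800), with the next identifier on chromosome 13, had a log2 fold change of -1.50 (SE 0.19) and LOX10 one of -0.06 (edgeR adjusted p = 0.734). The vegetative storage protein gene VSPB (Glyma.08G200100) stood at 6.87, 4.90 and 5.97 CPM in OE and 23.1, 23.3 and 21.8 CPM in WT, 3.85-fold lower (SE 0.132 on the log2 scale).

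Genes of the phenylpropanoid entry were mostly lower, with 8 of 12 down, 1 up and a median log2 fold change of -0.45. Phenylalanine ammonia-lyase (PAL) opens the pathway, and of its 8 genes 5 fell, 1 rose and 2 were not called. PAL1.1 (Glyma.19G182300) stood at 96.8, 95.1 and 101 CPM in OE root and 197, 199.9 and 191 CPM in WT root (log2 fold change -1.0, SE 0.0624). PAL3.1 (Glyma.02G309300, chromosome 2, 48287101 to 48289732) went the other way, at 30.5, 27.7 and 28.0 CPM in OE and 11.9, 13.9 and 16.9 CPM in WT (log2 fold change 1.01, SE 0.116, edgeR adjusted p = 3.28e-07). The groups were apart in both genes, with WT root 3 the highest WT library for PAL3.1 and the lowest for PAL1.1. PAL2.1, the most abundant PAL gene per length, was at 251 RPKM in OE and 275 RPKM in WT and did not pass (edgeR adjusted p = 0.0684). PAL1.2 and PAL1.3 lie next to each other and may share reads, and both had low levels, with log2 fold changes of -1.40 and -1.34. The next steps, cinnamate 4-hydroxylase (C4H) and 4-coumarate ligase (4CL1, 4CL2), had log2 fold changes of -0.56, -0.68 and -0.35, all called, while the scarce C4H1 had 0.34 (edgeR adjusted p = 0.22).

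In the flavonoid and isoflavonoid list, 15 of 28 members tested fell and 2 rose, again with a median log2 fold change of -0.45. Chalcone synthase (CHS) joins the phenylpropanoid and malonyl units. CHS7 (Glyma.01G228700) was the most abundant of the CHS genes matched by name and tested, at 366 RPKM in OE and 830.0 RPKM in WT. CHS8 followed at 231 and 466 RPKM. CHS1, CHS2, CHS3, CHS4B, CHS5 and CHS9 failed the name match by span, so their levels were not compared. Their log2 fold changes were -1.18 (SE 0.056) and -1.02 (SE 0.0585), with CHS10 at -1.0 (SE 0.123). CHS11 (Glyma.01G091400) rose from 0.122, 0.0608 and 0.0584 CPM in WT to 1.92, 3.17 and 2.46 CPM in OE (log2 fold change 4.86, SE 0.536, edgeR adjusted p = 1.97e-07), a change at the low end of the measured range. Reads shared between CHS copies make the values of single members uncertain. The chalcone reductase gene CHR5 and the chalcone isomerase gene CHI1A, which serve the isoflavonoid branch, had log2 fold changes of -0.47 and -0.31. The isomerase genes CHI4A, CHI4B and CHI3B2 were not called, and CHI3B1 (log2 fold change 0.82, edgeR adjusted p = 0.0244) lost its call without OE root 2 or 3 or WT root 1 or 2.

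Of 7 genes matched by name for enzymes that make or convert isoflavonoids, 6 fell. Others of the list, among them HIDH, IFR1, IFR2 and IF7MaT, failed the name match by span and were not counted. ICHG (Glyma.12G053800, chromosome 12, 3865217 to 3871740), whose enzyme frees isoflavones from their stored conjugates, stood at 993, 942 and 973 CPM in OE root and 1928, 2075 and 2124 CPM in WT root, 2.11-fold lower (log2 SE 0.0529, edgeR adjusted p = 2.34e-13). It was the most abundant of the 7 per length, at 443 RPKM in OE and 933 RPKM in WT. Isoflavone reductase (IFR, Glyma.11G070600) stood at 168, 149.5 and 171 CPM in OE and 321, 362 and 354 CPM in WT (log2 fold change -1.09, SE 0.0668). IFS1 and IFS2, which code for isoflavone synthase, had log2 fold changes of -0.42 and -0.86. The prenyltransferase genes of the glyceollin branch, G4DT and G2DT, changed by -0.62 (SE 0.137) and -1.51 (SE 0.26) on the log2 scale, both from levels below 14 CPM. IF7GT, a glucosyltransferase gene, had 72.4, 78.4 and 78.5 CPM in OE and 89.5, 84.2 and 60.2 CPM in WT. Its WT root 3 value lay below all others, and the gene was not called with that library (edgeR adjusted p = 0.896) but was without it (0.0211).

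Among 6 regulators of the isoflavonoid branch, 4 fell and 2 were not called. MYB29 stood at 30.6, 27.7 and 30.8 CPM in OE and 45.2, 53.6 and 49.1 CPM in WT (log2 fold change -0.73, SE 0.087). MYB29B2 (Glyma.20G209700) stood at 23.4, 19.7 and 21.5 CPM in OE and 44.7, 48.0 and 48.4 CPM in WT (log2 fold change -1.13, SE 0.0892). Both activate isoflavonoid genes in soybean hairy roots, and both were lower in each OE library than in any WT library. NAC42-2, a relative of the glyceollin regulator NAC42-1, had a log2 fold change of -1.40 (SE 0.248), and NAC42-1 itself -0.63 (edgeR adjusted p = 0.0666). MYB133 went the other way, at 0.28 (edgeR adjusted p = 0.0629), and its groups did not overlap. It was called higher without WT root 2 (0.0271), and NAC42-1 was called lower without WT root 1 (0.015). MYB176, at -0.21, lost its call without replicate 1 or 2 of either genotype (adjusted p up to 0.0904). Of 10 genes of the anthocyanin, flavonol and flavone branches, 7 had at most 22 counts in root and were not tested, and none of the other 3 was called.

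**Figure D2:**
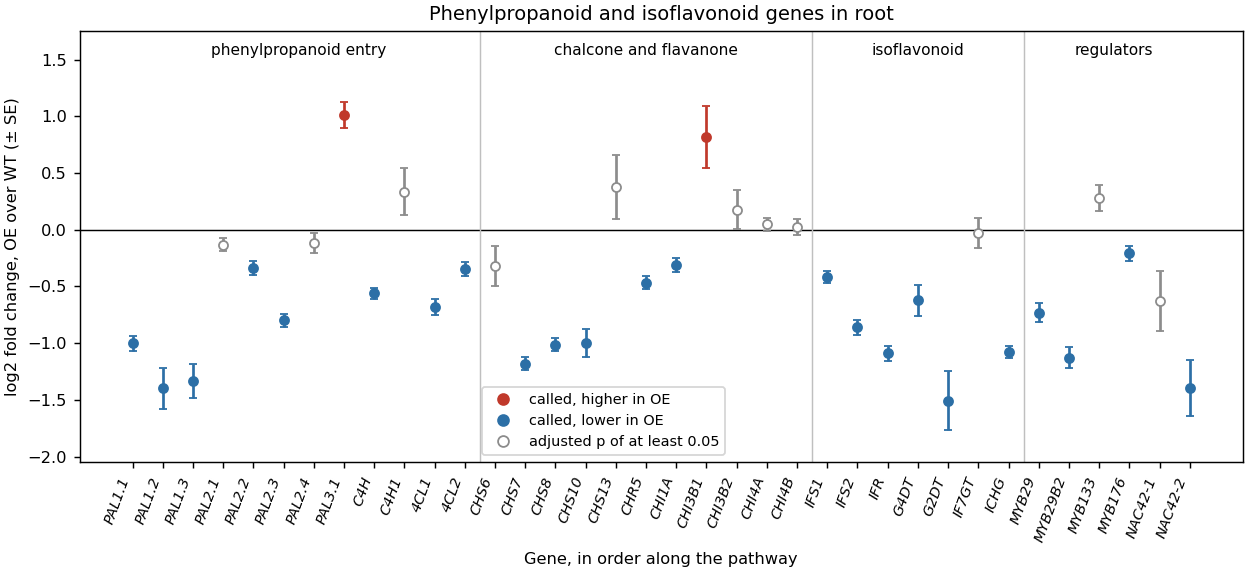
Log2 fold change of OE root over WT root, with SE from edgeR's model on 6 libraries, for the phenylpropanoid and isoflavonoid genes tested, ordered by step. Filled blue points were called lower, filled red points higher, and open points had an adjusted p of at least 0.05. PAL3.1 and CHI3B1 are the called genes above 0, and CHS11 at 4.86 is left out for scale, as are the 3 tested genes of the other branches.

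Genes of nodulation signalling stood higher in OE root for 4 of 8 members tested and lower for 1, with a median log2 fold change of 0.32. NINA (Glyma.04G000600, chromosome 4, 72328 to 75769), a transcription factor gene that starts nodule formation, stood at 12.7, 13.7 and 10.9 CPM in OE and 2.62, 3.28 and 4.14 CPM in WT, 3.7-fold higher (log2 fold change 1.89, SE 0.177, edgeR adjusted p = 1.59e-08). RJ1 (NFR1a, Glyma.02G270800), a receptor kinase gene for bacterial Nod factors, stood at 43.2, 40.4 and 43.4 CPM in OE and 19.6, 18.1 and 21.1 CPM in WT, 2.16-fold higher (SE 0.0905 on the log2 scale). Neither gene's groups overlapped. NFR5A, which encodes the partner receptor, and NARK, the receptor kinase gene that limits nodule number, had log2 fold changes of 0.51 (SE 0.0853) and 0.41 (SE 0.0818). NSP1, a transcription factor gene of the same pathway, had one of -0.48 (SE 0.121, edgeR adjusted p = 0.00396), with WT root 3 at 19.02 CPM close to OE root 3 at 18.5 CPM. The 2 SYMRK receptor kinase genes had log2 fold changes of 0.02 and 0.03 and were not called. As background to these values, no inoculation is named in the labels.

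Of 6 PIN genes, which code for auxin efflux carriers, 3 rose and none fell, with a median log2 fold change of 0.32. PIN1B stood at 39.8, 38.6 and 38.3 CPM in OE root and 28.7, 26.03 and 25.6 CPM in WT root (log2 fold change 0.54, SE 0.0858, edgeR adjusted p = 3.17e-05). PIN3A and PIN2B had log2 fold changes of 0.46 (SE 0.116) and 0.37 (SE 0.0969).

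Of 19 clock and photoperiod genes tested, 8 rose and 5 fell, with a median log2 fold change of 0.20. The 4 genes related to LHY, a morning-phased clock repressor, all rose, by 0.41 to 0.79 on the log2 scale, the largest being MYB114 (LHY2b) with 330.1, 337 and 325 CPM in OE and 199, 191 and 184 CPM in WT. The most abundant of them per length, LCL1 (LHY1a), stood at 244 RPKM in OE and 181 RPKM in WT. E2 (GIa, Glyma.10G221500), a GIGANTEA gene, stood at 63.5, 67.3 and 56.5 CPM in OE and 25.0, 31.9 and 23.6 CPM in WT, 2.33-fold higher (log2 fold change 1.22, SE 0.102, edgeR adjusted p = 7.18e-09). The phytochrome genes PHYA, E4 (PHYA2) and PHYB had log2 fold changes of 0.41, 0.56 and 0.31, the last not called without OE root 3 (edgeR adjusted p = 0.0547), and PHYA3 one of -0.74. Genes whose Arabidopsis relatives act in the evening complex were lower where called, with ELF3A at -0.57, LUXC at -0.62 and LUXB at -0.82. ELF3B, at -0.16, was not called (edgeR adjusted p = 0.212). The LUXB call rested on few counts, with 25 to 42 per OE library. In LUXC the groups overlapped, with OE root 1 at 7.64 CPM above WT root 3 at 6.77 CPM. Each of these 2 calls was lost when certain libraries were left out (edgeR adjusted p up to 0.139 for LUXC and 0.112 for LUXB). TOC1 had a log2 fold change of -0.07 (edgeR adjusted p = 0.629). DT2 also fell, with a log2 fold change of -1.04 (SE 0.285, edgeR adjusted p = 0.00656) on 25 to 28 counts per OE library and 35 to 59 per WT library.

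Among 8 stress and nematode genes tested, 1 rose and 4 fell. WRKY27 (Glyma.15G003300), a stress-responsive transcription factor gene, stood at 32.8, 31.9 and 31.2 CPM in OE root and 77.3, 80.5 and 74.8 CPM in WT root, 2.42-fold lower (log2 fold change -1.28, SE 0.0747, edgeR adjusted p = 5.14e-12). SNAP18, the gene of nematode resistance locus Rhg1, was far more abundant, at 598 RPKM in OE and 705 RPKM in WT, with a log2 fold change of -0.24 (SE 0.0548). BZIP1 changed by 0.40 and PAD4 by -0.26, which was not called without OE root 1 or 3 (edgeR adjusted p up to 0.0765). SNAP11 had -0.25 with an adjusted p of 0.0483 in edgeR, and 0.132 without WT root 3, and it was lost without OE root 2 or 3 or WT root 2 as well. Without WT root 3 this list gave 3 up and 3 down. Of 4 soyasaponin genes 1 was called, SGT3 at -0.19, and it was lost without OE root 2 or WT root 1 (adjusted p up to 0.0764). Sucrose synthase (SS) had a log2 fold change of 0.07 (edgeR adjusted p = 0.422).

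Transcripts of green tissue were scarce in every root library. RBCS2, for the Rubisco small subunit, had 5.38 to 7.85 CPM in OE root and 6.02 to 7.12 CPM in WT root. RCA11, for Rubisco activase, had 2.42 to 4.92 CPM and 3.97 to 4.38 CPM. Of the 4 leaf markers, RCA14 was called, at 1.13 to 1.21 CPM in OE and 2.68 to 4.20 CPM in WT. CAB3, for a chlorophyll-binding protein, had 2.80 CPM in WT root 3 against 6.51 to 8.29 CPM in the other 5 libraries.

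**Figure D3:**
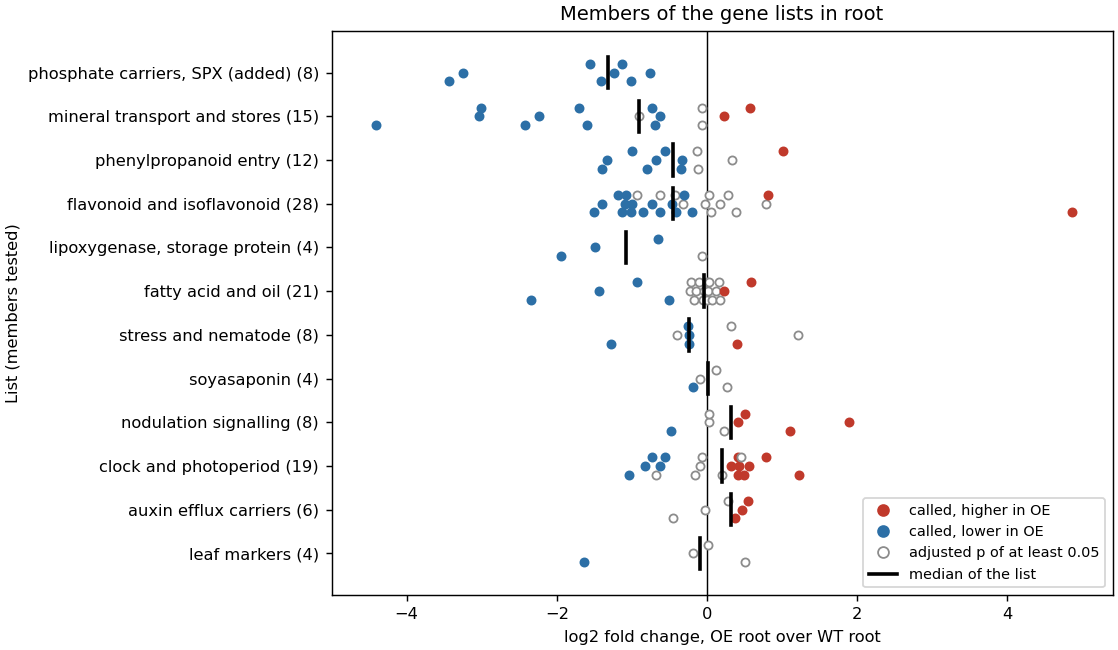
Log2 fold change of OE root over WT root for each member tested of 12 gene lists, one point per gene, with the median of each list as a black bar. Filled points were called. The mineral list includes SPX1, SPX2, SPX3 and PHT1-1. Most called phosphate, mineral, phenylpropanoid and isoflavonoid genes lie left of 0, while called genes of nodulation signalling and auxin carriers lie mostly right of it.

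Genes without a matched name were chosen by size of change and by level. Glyma.20G129000 (chromosome 20, 37038318 to 37040153) had 2, 4 and 3 counts in OE root and 1471, 1449 and 1544 counts in WT root, a log2 fold change of -9.05 (SE 0.159, edgeR adjusted p = 3.81e-21). Glyma.18G245400 (chromosome 18, 53307862 to 53309723) had 0, 3 and 0 counts in OE and 624, 662 and 566 counts in WT. Both were near zero in each OE library. In the other direction, Glyma.15G245300 (chromosome 15, 46683513 to 46689035) stood at 50.2, 49.2 and 48.6 CPM in OE and 2.98, 2.43 and 3.21 CPM in WT, 17.1-fold higher (SE 0.12 on the log2 scale). Glyma.18G226300 (chromosome 18, 51471540 to 51498344) stood at 25.7, 27.4 and 24.9 CPM in OE and 1.6, 1.76 and 1.40 CPM in WT, 16.4-fold higher.

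Among abundant genes without a name, Glyma.16G060700 (chromosome 16, 5953190 to 5954298) went from 722 RPKM in WT to 121 RPKM in OE, 5.95-fold lower, and had no count in WT leaf. Its WT root 3 value of 759 CPM was above those of WT root 1 and 2, at 624 and 643 CPM. Glyma.15G129100 went from 646 to 320.0 RPKM. Glyma.11G228000 (chromosome 11, 32310610 to 32312178) was 2.1-fold higher, from 722, 691 and 643 CPM in WT to 1460.0, 1409 and 1451 CPM in OE, and Glyma.15G115000 rose 2.04-fold.

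In 5 genes one genotype had no count in root and the other at least 50 in each library. Glyma.19G026600 (chromosome 19) had 151, 140 and 169 counts in WT root 1 to 3 and none in OE root, at least 54.4-fold lower against a floor of 3 counts per library. Glyma.03G091700 was at least 33.8-fold lower by the same measure. Glyma.18G235700 (chromosome 18) had 115, 133 and 145 counts in OE root and none in WT root, at least 40.9-fold higher, and Glyma.08G261500 and Glyma.13G042200 were at least 28.6-fold and 25.9-fold higher.

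**Figure D4:**
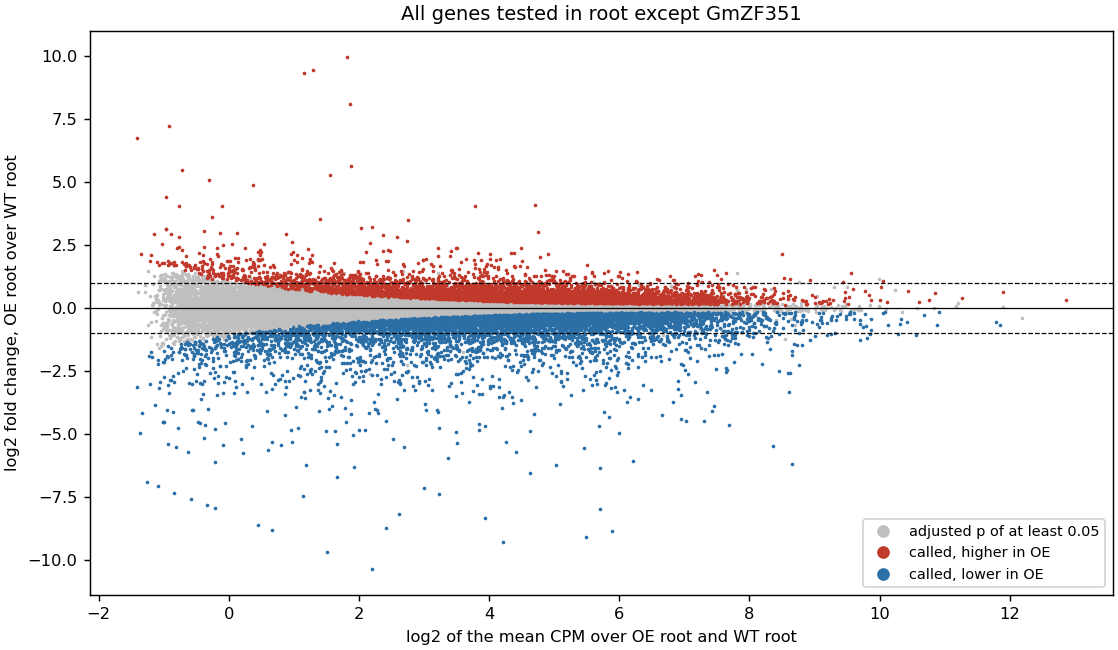
Log2 fold change of OE root over WT root against the log2 of the mean CPM over both groups, one point per gene tested. GmZF351 is left out for scale, and the dashed lines mark 2-fold. Below the lower line lie 1734 called genes, and 697 called genes, GmZF351 among them, were higher by 2-fold or more.

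Called genes were spread over the genome. The share of tested genes called ran from 32.1% on chromosome 4 to 40.1% on chromosome 18. In 1651 windows of 20 neighbouring tested genes, 76.1% held no gene that fell 4-fold or more. The window with most of them had 6, on chromosome 13 from 10090818 to 10708588, and windows on chromosomes 17 and 18 had 5 each. With level, the share called rose from 17.9% in the lowest quintile of mean RPKM to 57.4% in the highest. The share at least 2-fold higher did not follow, going from 4.9% in the lowest quintile to 1.1% in the highest. That of genes at least 2-fold lower was 7.7% in the lowest, 3.5% in the middle and 6.2% in the highest. With exonic length the share called stayed between 34.1% and 36.6%, although in the longest quintile more genes rose (19.7%) than fell (14.3%). Library values moved with length as well: in the longest quintile, OE root 2 lay a median of 0.089 above the other OE libraries on the log2 scale, and OE root 1 and 3 lay -0.039 and -0.05 from the rest of their group. Their part in the excess of longer genes among the higher ones was not tested.

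Many genes that changed most were little used in leaf. Of the 81 genes at least 4-fold higher in OE root, 76.5% had under 1 CPM in WT leaf, against 21.8% of all genes tested. Of the 480 at least 4-fold lower, 44.2% did. Of genes at least 2-fold higher the share was 53.7%, and of genes at least 2-fold lower 41.8%. These genes were also scarcer in root. The median RPKM was 2.03 for genes at least 2-fold higher and 4.91 for those at least 2-fold lower, against 6.29 over all genes tested. At 4-fold or more it was 1.43 for higher and 3.65 for lower genes.

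How far WT root 3 alone set these calls was measured beside the other 5 libraries. By spread it was the odd one, since its log2 CPM deviated from the mean of WT root 1 and 2 with an SD of 0.244, where the other libraries gave 0.132 to 0.195. Of 18513 genes with at least 10 CPM, 63 in WT root 3 lay 2-fold or more from the mean of its partners, 61 of them below it, against 1 to 10 genes in the other libraries. It was also the WT library farthest from the OE mean in 49.2% of called genes, against 26.3% for WT root 1 and 24.6% for WT root 2. In OE, replicate 2 was farthest in 40.6%.

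Few calls depended on it. Without WT root 3, edgeR called 12413 of 33832 genes (36.7%), more than with it, and 10678 of these were shared with the 6-library fit, which is 90.4% of its calls. Leaving out any other library gave 9269 to 11631 calls and kept 76.6% to 88.5% of those of the 6-library fit. In a fit on all 12 libraries, chosen as an alternative, calls went from 10822 to 9341 without WT root 3 and to between 8421 and 10057 without 1 of the others, so the gain in calls was seen in the root-only fit and not there. Calls lost only when WT root 3 was left out, and kept in each of the 5 other such fits, numbered 11, against 17 and 65 for WT root 1 and 2 and 210 to 333 for the OE libraries. Of all calls, 7605 (64.4%) held in each of the 6 fits, and of the 2431 at 2-fold or more 2045 (84.1%) did. No gene called both in the 6-library fit and without a library changed sign, while the signs of lost calls were not compared.

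Over all 33389 genes tested, with no lower limit on level, WT root 3 read alone against the OE mean gave 1721 genes 2-fold higher and 2063 lower. WT root 1 gave 886 and 1854 and WT root 2 gave 893 and 1867. The surplus was larger among genes higher in OE than among those lower. Among genes with at least 10 CPM, WT root 3 held 61 at least 2-fold below its partners. Of these, 5 were called higher in OE with it and 25 without it, and 0 were called lower with it and 11 without it. Of the 1735 genes gained by leaving it out, 1668 had been tested with it, and in 93.5% of those WT root 3 lay on the OE side of its partners. Leaving out such a value widens the difference between the groups, so this share follows largely from how the gained genes were selected. The gained genes were 909 higher and 826 lower, with a median absolute log2 fold change of 0.38.

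Among the gene lists, leaving out WT root 3 gave 2 up and 17 down among the 28 flavonoid and isoflavonoid genes tested with it, 2 up and 8 down for the phenylpropanoid entry, 8 up and 6 down for clock genes and 0 up and 2 down for soyasaponin genes. CHS4A, which had too few counts to be tested with WT root 3, was also called lower without it (log2 fold change -2.18, edgeR adjusted p = 0.00606). Apart from the stress and nematode list given above, the other lists kept their counts, with ACPD taking the place of FAD2-2B among oil genes.

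Single genes show both sides. Glyma.15G167900 stood at 25.4, 25.1 and 27.3 CPM in OE root and 18.4, 16.7 and 5.43 CPM in WT root. It was not called with WT root 3 (edgeR adjusted p = 0.195) and was without it (8.59e-06). Glyma.11G132900 had 24.5 and 27.7 CPM in WT root 1 and 2 and 4.08 CPM in WT root 3, but its OE values of 0.879, 5.60 and 10.2 CPM varied as much. Glyma.10G288600, which WT root 3 held highest against its partners, had 24.3 CPM there against 11.9 and 10.95 CPM, and 13.02 to 15.7 CPM in OE.

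**Figure D5:**
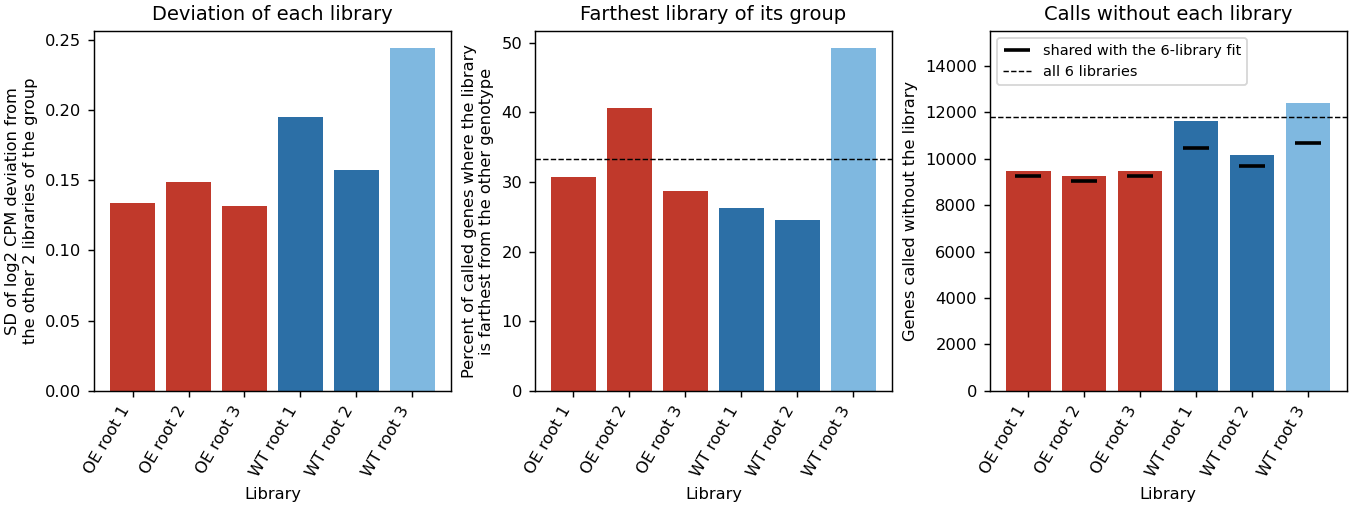
Measures for each root library, with OE root in red, WT root 1 and 2 in dark blue and WT root 3 in light blue. Left, SD of the log2 CPM deviation from the mean of the other 2 libraries of the group (0.244 for WT root 3), middle, percent of called genes in which the library is the farthest of its group from the other genotype, with a dashed line at an equal share, and right, genes called when the library is left out, with black bars for those shared with the fit on all 6. WT root 3 is highest in the first 2 panels, and leaving it out gives 12413 calls, above the dashed line of the 6-library fit at 11818.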

How the data were processed

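TRIzol was used to extract RNA and libraries were prepared by Illumina's standard method, per the labels' protocols. The deposited table holds raw read counts per gene, made by the authors with featureCounts 2.0.1 over exons in paired-end mode with annotation Wm82.a2.v1, per the file headers. That command has neither a strand option nor one for multi-mapping reads, so antisense partners and near-identical copies are uncertain. No source used here names the aligner. Coordinates are those of that annotation.

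Counts of the 6 root libraries were fitted in R 4.3.3 with edgeR 4.0.16 (filterByExpr, TMM factors of 0.965 to 1.025, robust quasi-likelihood, group as the only term). Tested genes hold 99.89% of root counts, and the common biological coefficient of variation was 0.09. P-values were adjusted by Benjamini-Hochberg over all genes tested, and 0.05 was the threshold. RPKM divides CPM by exonic length. The script was checked on simulated counts. Alternatives were DESeq2 1.42.0, other scaling and filters, all 12 libraries, a replicate block, a non-robust prior and leaving out each library. The 95% interval is exact (Clopper-Pearson), and like the floor of 3 counts it covers counting error only.

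None of the 43517 identifiers matched the symbol table (assembly Glycine_max_v4.0). Instead, 253 identifiers with published names were written from general knowledge, and a name was kept where exactly 1 gene of that table on the same chromosome carried it and had a span within 10%, which left 176. Genes named are GmZF351, members of these lists, and without a name the 2 largest changes each way among non-overlapping calls with at least 10 CPM in the higher group, the 2 most abundant 2-fold calls each way, and the genes WT root 3 held highest and lowest. Genes found in 1 genotype were added after their values were seen. Members, lists and rules were chosen with earlier results of these data known.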

Additional observations from a re-analysis of the deposited data

How the results depend on the processing

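The 11818 calls became 10696 with DESeq2, 11821 with DESeq2 factors, 12121 with upper-quartile factors, 12053 without a filter, 11643 with at least 1 CPM in 3 libraries, 10822 in the 12-library fit and 11842 with a non-robust prior. Upper-quartile factors moved the median of all genes from 0.008 to 0.051 on the log2 scale and the share of calls that were higher from 45.7% to 52.9%, and in the 12-library fit that share was 39.8%. Leaving out 1 library gave 9269 to 12413 calls, 4012 to 5676 higher, 5257 to 6737 lower and 2238 to 2652 at 2-fold or more. In the 12-library fit, leaving out 1 root library, chosen after seeing the data, gave 8421 to 10057 calls. There 3295, 3250 and 3305 genes were higher without OE root 1, 2 and 3 and 4061, 3604 and 3534 without WT root 1, 2 and 3, against 4310 in the 12-library fit with every library and 5403 in the root-only fit. The cause was not tested. No alternative reversed a called gene.

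With the replicate number as a block 11338 genes were called, 5237 higher and 6101 lower, and it changed no call of a named gene except CAB3 (gained, edgeR adjusted p = 0.0459) and SNAP11 (lost, 0.0663). Deviations of same-numbered libraries correlated at -0.09, -0.08 and -0.03, and those of libraries with unlike numbers at 0 to 0.07. Such low correlations show no sign of pairing but cannot exclude it. Of 92 called named genes, 81 held under every alternative of the list set at the start. The 11 others were PIN2B (lost in the 12-library fit, edgeR adjusted p = 0.0531) and 10 whose loss without a library is given above, while 16 uncalled ones passed under at least 1. The 92 include GmZF351 and the genes without a matched name that were picked among non-overlapping calls, so the count is a description. Of all calls, 64.4% held in each of the 6 fits that left out 1 library. CHS11, with at most 2 counts in each WT root library, is limited by depth.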
